A study of Mus musculus with 12 samples.

Results

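The 46 genes described here copy the DNA, divide the nucleus or set the pace of the cell cycle, and they were chosen as a list of symbols, each mapped to 1 Ensembl mouse gene ID, out of the 53801 genes in the count files. All 46 had at least 5 counts in 1 or more of the 12 libraries and were tested. The libraries hold bulk RNA of dendritic cells (DCs) sorted from mouse intestine, 3 from different mice in each of 4 groups, and the strain of every group is given as a mixed background. The groups were CD103+CD11b- DCs and CD103-CD11b+ DCs, called CD103+ DCs and CD11b+ DCs from here on, of mice labelled wild type (WT) or cKO, which carry CbfbF/F alleles and a CD11c-Cre transgene. Cbfb encodes the partner subunit that all Runx transcription factors share, and the study asked how DCs of the gut change without it. The Cre is expressed from the CD11c promoter, so that deletion takes place in CD11c-expressing cells, and the study also found some recombination in intestinal CD4+ T cells. No age is tied to these libraries in the sources used here, and whether their wild-type mice carried CD11c-Cre is not given there.

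A cell that divides passes through G1, DNA synthesis (S phase), G2 and mitosis. D-type cyclins with Cdk4 or Cdk6 release the E2F factors in G1, E2F targets such as the Mcm helicase subunits then license and copy the DNA, and a later wave of genes, driven through CHR elements and CCAAT boxes in their promoters, builds the mitotic machinery. Conventional DCs descend from dividing precursors in the bone marrow, and some DCs still divide in the tissue.

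Between 2161929 and 5863484 counts fell on genes per library, and the member with the fewest counts had 4 in its lowest library, so that 45 of the 46 members had 5 or more counts everywhere. Levels are CPM, counts that edgeR scaled to a common library size with TMM factors, and the p-values below measure the spread between these libraries. Cbfb itself measured 228, 216 and 199 CPM in WT and 221, 215 and 290 CPM in cKO CD103+ DCs (log2 fold change 0.17, standard error 0.19, FDR 0.876). In CD11b+ DCs it measured 184, 161 and 217 CPM in WT and 180, 170 and 273 CPM in cKO (log2 fold change 0.14, standard error 0.19, FDR 0.744), so the level of the targeted gene over its whole length did not check the genotype labels. The sorted subsets did carry their markers: Xcr1 lay between 384 and 472 CPM in WT CD103+ DCs and between 4.0 and 30.2 CPM in WT CD11b+ DCs, while Itgam, which encodes CD11b, lay between 3.66 and 4.79 CPM and between 77.9 and 104 CPM. In cKO libraries Xcr1 ranged from 521 to 680 CPM in CD103+ DCs and from 16.4 to 73.9 CPM in CD11b+ DCs. The gate removed CD64+ cells, and Fcgr1, which encodes CD64, was at 0 in replicate 2 of the WT and replicates 1 and 3 of the cKO CD103+ DCs but between 4.94 and 11.7 CPM in WT CD11b+ DCs.

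Most markers of cells other than DCs moved with the subset. Of 44 markers of macrophages, B cells, plasma cells, T cells and innate lymphoid cells, epithelium, and stroma with endothelium, 41 had a higher mean in CD11b+ than in CD103+ DCs of WT mice and 40 in cKO mice. Their summed level was 1100 to 1440 CPM in WT CD103+, 2140 to 4100 in WT CD11b+, 461 to 1100 in cKO CD103+ and 1750 to 3110 in cKO CD11b+ DCs. Markers of plasmacytoid DCs went the other way, with 524 to 1230 CPM in WT CD103+ and 116 to 253 in WT CD11b+ DCs, and 208 to 435 and 123 to 275 in cKO mice, where the ranges overlapped. Sums of single lists did not all follow the total. In WT mice B cell markers summed to 97.3 to 154 CPM in CD103+ and 149 to 330 in CD11b+ DCs. T cell and innate lymphoid markers summed to 102 to 206 and 56.7 to 182 CPM, although 7 of these 8 had a higher mean in CD11b+ DCs. The CD11b+ library with the highest sum of the 44 was replicate 2 in both genotypes. The same libraries were low in the cell cycle genes: replicate 2 was the lowest of the WT CD11b+ DCs for 42 of the 46 members and the lowest of the cKO CD11b+ DCs for 37. What these cells contribute to the differences between subsets was not tested, and the counts of members and of the wider list below are also given without both libraries, an alternative chosen after the data were seen. In bulk samples fewer dividing cells and less RNA of a gene per cell cannot be told apart.

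All roles of the cycle were represented in the sorted DCs. Per exon length, as RPKM averaged over the 12 libraries, the inhibitor gene Cdkn1b (38.1) and the D-type cyclin gene Ccnd2 (37.5) had the highest levels, followed by the helicase genes Mcm3 (33.4) and Mcm5 (32.3), and then Ccnd1 (31.5) and Mcm4 (31.5). The mitotic cyclin gene Ccnb2 (30.6), Mcm6 (29.1), Cdk4 (28.0) and Mki67 (28.0), which encodes a chromosome-surface protein of cycling cells, came next, while the median member had an RPKM of 9.66. The lowest were Gins2 (1.51), a subunit of the replicative helicase complex, and Ccnb1 (0.764), the other B-type mitotic cyclin. Reads were counted without strand, and 67.3% of the exon bases of Gins2 also lie in Gse1. Reads that overlap both genes are ambiguous and not counted, so the level of Gins2 may be underestimated. Ccnb1, Ccnb2, Pcna, Tyms and Ccnd3 have annotated pseudogenes, to which some of their reads could be lost.

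**Figure D1:**
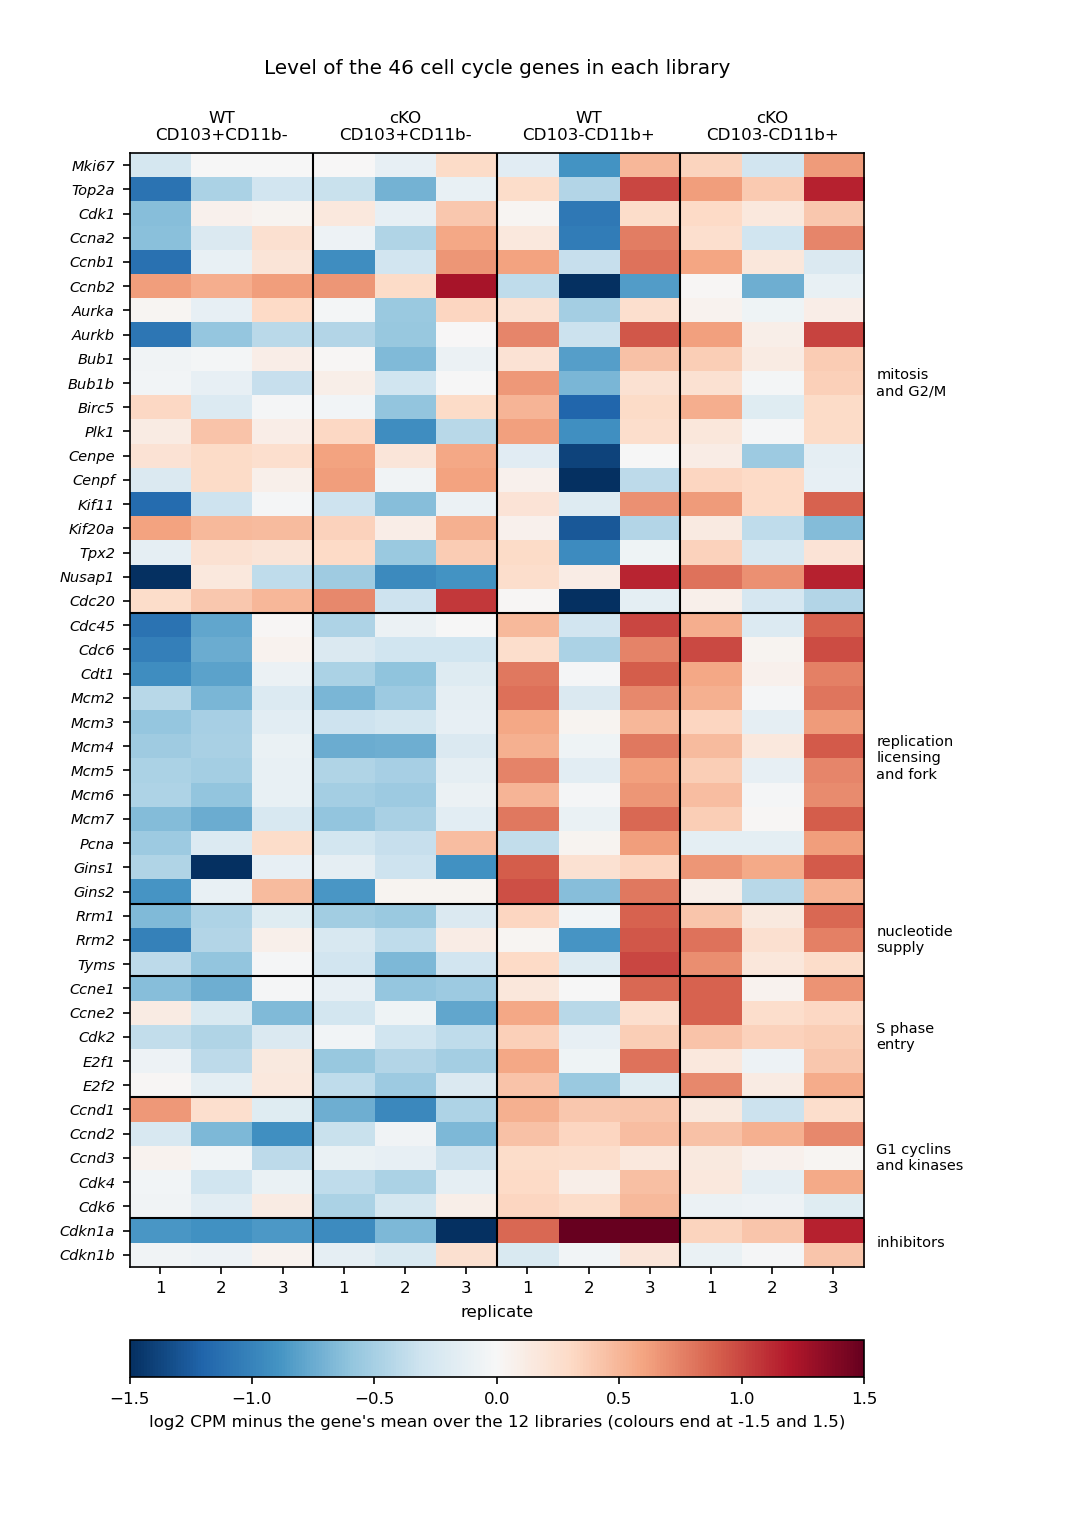
Level of each member in each of the 12 libraries, with members in rows grouped by role, libraries in columns grouped by subset and genotype, and color giving the log2 CPM relative to the mean of the gene over all libraries. Replication genes and Cdkn1a are higher in most CD11b+ libraries, and replicate 2 of the WT CD11b+ DCs is the lowest of its group for 42 of the 46 members.

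Promoters of 3 replication genes and 2 mitosis genes are shown because these are the largest roles in the list and are known to be driven by different elements. Windows from 250 bases before to 50 bases after the start of transcription were taken from RefSeq (GRCm38.p6), where 36 of the 46 members were matched. Letters searched on both strands were CCAAT (the CCAAT box), TTTGAA and TTCGAA (the CHR element), and TTTCCCGC, TTTGGCGC, TTTCGCGC and TTTGCCGC (E2F sites), and matches stand in capitals, as the reverse complement where they lie on the other strand. Of the E2F letters, matches on opposite strands can overlap, as in the first E2F stretch of Mcm6. Shown 5′ to 3′ on the strand of the gene are Mcm2 (chr6:88898731-88899030, minus strand), Mcm3 (chr1:20820263-20820562, minus), Mcm6 (chr1:128359656-128359955, minus), Ccnb2 (chr9:70421505-70421804, minus) and Cdk1 (chr10:69352863-69353162, minus):
Mcm2: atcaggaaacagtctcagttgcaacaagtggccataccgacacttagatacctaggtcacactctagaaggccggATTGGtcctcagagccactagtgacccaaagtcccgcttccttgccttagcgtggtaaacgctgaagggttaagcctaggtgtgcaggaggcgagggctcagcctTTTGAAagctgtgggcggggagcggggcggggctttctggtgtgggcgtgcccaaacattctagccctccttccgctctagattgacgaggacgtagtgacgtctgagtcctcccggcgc
Mcm3: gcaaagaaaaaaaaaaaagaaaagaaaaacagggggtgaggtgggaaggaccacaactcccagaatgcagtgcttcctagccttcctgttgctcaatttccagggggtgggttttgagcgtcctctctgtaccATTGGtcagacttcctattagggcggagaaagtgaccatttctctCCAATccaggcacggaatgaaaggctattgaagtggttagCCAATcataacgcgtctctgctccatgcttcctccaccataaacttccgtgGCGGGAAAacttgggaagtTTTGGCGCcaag
Mcm6: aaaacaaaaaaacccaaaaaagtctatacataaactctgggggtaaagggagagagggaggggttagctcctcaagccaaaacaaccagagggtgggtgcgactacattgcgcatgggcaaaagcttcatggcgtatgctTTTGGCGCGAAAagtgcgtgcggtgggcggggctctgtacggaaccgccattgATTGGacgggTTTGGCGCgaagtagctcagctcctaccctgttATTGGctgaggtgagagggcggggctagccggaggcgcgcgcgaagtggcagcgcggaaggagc
Ccnb2: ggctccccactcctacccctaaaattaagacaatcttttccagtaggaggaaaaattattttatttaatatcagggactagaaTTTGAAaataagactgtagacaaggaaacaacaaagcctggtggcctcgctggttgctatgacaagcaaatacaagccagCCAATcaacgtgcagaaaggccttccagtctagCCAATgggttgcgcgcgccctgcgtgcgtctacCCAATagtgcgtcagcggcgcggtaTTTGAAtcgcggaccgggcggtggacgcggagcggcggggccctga
Cdk1: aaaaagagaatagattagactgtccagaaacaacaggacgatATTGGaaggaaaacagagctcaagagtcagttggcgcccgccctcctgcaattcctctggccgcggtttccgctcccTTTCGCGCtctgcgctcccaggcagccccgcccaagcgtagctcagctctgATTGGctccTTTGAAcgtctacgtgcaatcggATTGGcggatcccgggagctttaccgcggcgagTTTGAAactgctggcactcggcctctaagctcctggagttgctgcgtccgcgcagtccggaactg

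E2F letters were found in the windows of 6 of 9 replication genes matched (66.7%), against 1 of 15 mitosis genes (6.67%) and 2.60% of all 27025 genes with a window. CHR letters showed the opposite order, with 11 of 15 mitosis genes (73.3%), 3 of 9 replication genes (33.3%) and 21.7% of all genes. CCAAT was frequent in both, in 13 of 15 mitosis genes (86.7%) and 7 of 9 replication genes (77.8%), against 41.1% of all genes. Among the windows shown, that of Mcm3 holds 2 E2F matches and no CHR, that of Mcm6 holds 3 E2F matches and no CHR, and that of Ccnb2 holds 3 CCAAT boxes and 2 CHR matches but no E2F. The window of Mcm2 holds 1 CHR match and no E2F match, and that of Cdk1, the kinase that drives mitosis, holds both kinds. Such a match describes the letters of the window and is not a site shown to be bound.

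The first question was how the members differ between the subsets in WT mice. By edgeR's quasi-likelihood test, with calls made past an FDR of 0.05 where the fold change exceeded 1.3, 12 of the 46 members were higher and 2 were lower in CD11b+ than in CD103+ DCs, or 30.4% against 18.8% of all 20580 genes tested. Of all genes, 11.8% were called higher and 7.0% lower. Of the 12 replication genes 7 were higher (Cdt1 and Mcm2 to Mcm7), while of the 19 genes of mitosis 1 was higher (Aurkb) and 2 were lower (Ccnb2 and Kif20a). Rrm1, Cdk2, Ccnd2 and Cdkn1a were the other 4 higher members. The median log2 fold change was 0.57 over all members, 0.81 over replication and 0.01 over mitosis, beside 0.07 over all genes tested. At an unadjusted p under 0.05 there were 25 members, against 7059 of all 20580 genes tested. DESeq2 called 18, adding Top2a, Gins1, Ccnd3 and Cdk6, and 23.3% of the genes to which it gave an adjusted p. Here and below "called" without a tool means edgeR's quasi-likelihood test. The number of calls depended on single libraries: it fell to 3 without replicate 1 or 2 of the WT CD103+ or replicate 3 of the WT CD11b+ DCs, to 4 without replicate 1 of the WT CD11b+ DCs and to 10 without replicate 3 of the WT CD103+ DCs, and it was 15 without replicate 2 of the WT CD11b+ DCs. Without replicate 2 of both CD11b+ groups, 15 members were higher and 1 was lower (10.3% of all genes called), and the medians were 0.72 over all members, 0.99 over replication and 0.26 over mitosis. With the 6 libraries of the comparison fitted alone, 2 were higher and 1 was lower, where 13.4% of all genes were called. Cdkn1a, Ccnd2 and Ccnb2 were called in all 6 of the refits with a library left out, and the other 11 in 1 or 2 of them.

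In cKO mice 10 of the 46 members were higher and none was lower in CD11b+ than in CD103+ DCs, or 21.7% against 16.1% of all genes tested. Of all genes, 9.26% were called higher and 6.81% lower, and the median over all genes was shifted by 0.11, a shift that the values below contain. The 10 were Mcm4 and Mcm6 in replication, Top2a and Nusap1 in mitosis, Rrm1, Cdk2, E2f2, Ccnd1, Ccnd2 and Cdkn1a. Median log2 fold changes were 0.63 over all members, 0.83 over replication and 0.21 over mitosis. An unadjusted p under 0.05 was found for 25 members, against 6555 of all 20580 genes tested. Libraries of cKO mice with the same replicate number deviated together from their group means, and with a block for the replicate within genotype 20 members were called, 19 higher and 1 lower (Ccnb2), where 21.5% of all genes were called. All 10 calls were kept under this replicate block, and the 20 held 6 genes of replication and 4 of mitosis. DESeq2 called 17, adding Ccnb2, Kif11, Cdt1, Mcm2, Mcm5, Mcm7 and Cdk4, and 23.2% of the genes to which it gave an adjusted p. Single libraries again set the unblocked number, which was 3 without replicate 1, 2 without replicate 2 and 6 without replicate 3 of the cKO CD103+ DCs. It was 3 without replicate 1, 14 without replicate 2 and 5 without replicate 3 of the cKO CD11b+ DCs. Cdkn1a and Ccnd2 were called in all 6 refits with a library left out, Mcm4 in 4, Cdk2 in 3 and the others in at most 2. Without replicate 2 of both CD11b+ groups, 19 were higher and none was lower (12% of all genes called), and the medians were 0.72, 0.97 and 0.33.

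The same 6 members were called in both genotypes: Mcm4, Mcm6, Rrm1, Cdk2, Ccnd2 and Cdkn1a. They make up 6 of the 14 called in WT and 6 of the 10 called in cKO mice. A call in a single genotype is no difference between the genotypes, and the test of that difference, given further on, called no member.

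**Figure D2:**
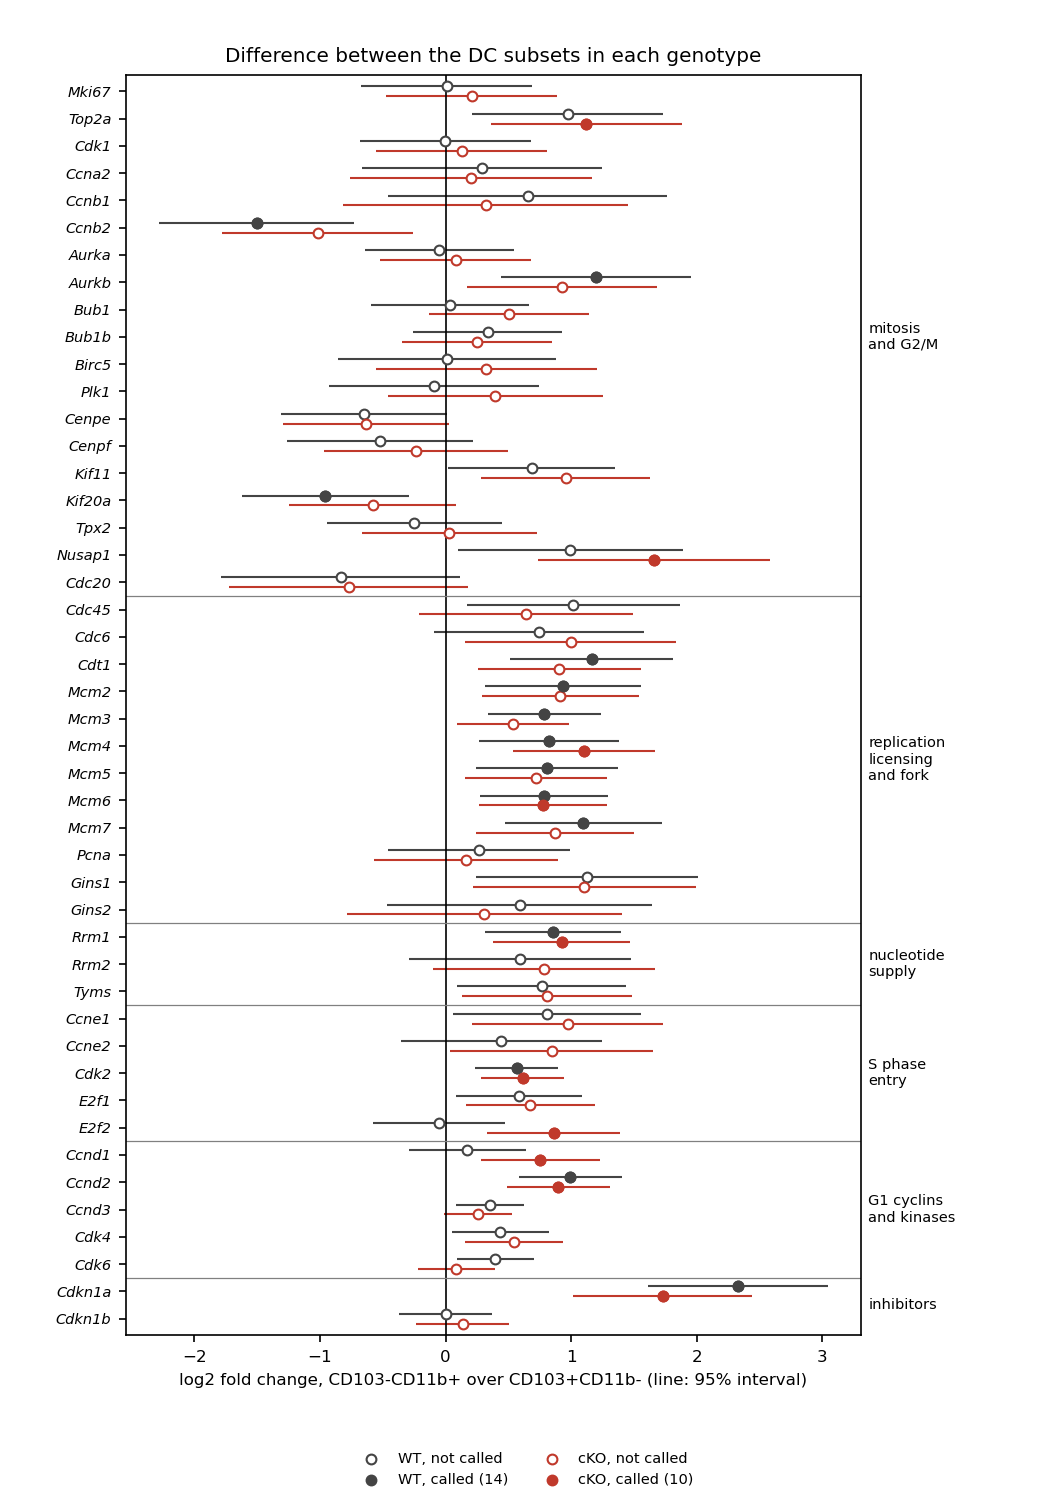
Log2 fold change of each member between CD11b+ and CD103+ DCs in WT and in cKO mice, from edgeR, with lines for the 95% confidence interval, members grouped by role and filled points for called members. The replication genes lie to the right of 0 in both genotypes, whereas the mitosis genes spread on both sides of it.

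In WT mice replication genes were the largest group of calls. Cdt1, which loads the Mcm helicase onto origins, measured 17.1, 18.8 and 30.7 CPM in WT CD103+ DCs, 56.6, 32.3 and 61.4 in WT CD11b+ DCs, 23.5, 21.5 and 28.6 in cKO CD103+ DCs and 48.9, 34 and 55.1 in cKO CD11b+ DCs. Every CD11b+ library lay above every CD103+ library of its genotype. The log2 fold change was 1.17 (standard error 0.29, FDR 0.0217) in WT and 0.91 (standard error 0.30, FDR 0.0597) in cKO mice, where the FDR was 0.0153 with the replicate block. Of the helicase subunits, Mcm2 measured 80.4, 67 and 93.5 CPM in WT CD103+ DCs, 189.7, 92.6 and 177 in WT CD11b+ DCs, 67, 73.5 and 98.2 in cKO CD103+ DCs and 156, 106 and 188 in cKO CD11b+ DCs. The WT ranges overlapped, because replicate 2 of the CD11b+ DCs fell just below the highest CD103+ library, and the cKO ranges did not. Its log2 fold change was 0.93 (standard error 0.28, FDR 0.0418) in WT and 0.91 (standard error 0.28, FDR 0.0502) in cKO mice, with an FDR of 0.00982 under the block. Mcm3 measured 80.7, 85.6 and 108 CPM in WT CD103+ DCs, 180.1, 124 and 169.9 in WT CD11b+ DCs, 97.6, 99.8 and 111 in cKO CD103+ DCs and 150.4, 109.9 and 188 in cKO CD11b+ DCs. It was higher in all WT CD11b+ libraries, at a log2 fold change of 0.79 (standard error 0.20, FDR 0.0233), while in cKO mice replicate 2 of the CD11b+ DCs reached only the level of CD103+ replicate 3 (log2 fold change 0.54, standard error 0.20, FDR 0.0961).

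Mcm4 was the helicase gene with the smallest FDR in cKO mice. It measured 72.2, 74.8 and 97.5 CPM in WT CD103+ DCs, 152, 101 and 181 in WT CD11b+ DCs, 62.6, 63 and 90.0 in cKO CD103+ DCs and 146, 117 and 199 in cKO CD11b+ DCs. The subsets did not overlap in either genotype, and the log2 fold change was 0.82 (standard error 0.25, FDR 0.0439) in WT and 1.10 (standard error 0.26, FDR 0.0137) in cKO mice. Mcm7 measured 32.1, 30.2 and 42.8 CPM in WT CD103+ DCs, 87.1, 47 and 91.3 in WT CD11b+ DCs, 33.5, 36.1 and 45.4 in cKO CD103+ DCs and 65.3, 51.2 and 94.8 in cKO CD11b+ DCs. Its CD11b+ libraries were all above its CD103+ libraries, at a log2 fold change of 1.10 (standard error 0.29, FDR 0.024) in WT and 0.87 (standard error 0.29, FDR 0.0601) in cKO mice, the latter at an FDR of 0.0138 with the block. Of the exon bases of Mcm7, 12.6% are shared with other genes. Mcm5 and Mcm6 had log2 fold changes of 0.81 (FDR 0.0492) and 0.78 (FDR 0.0373) in WT mice and of 0.72 (FDR 0.0804) and 0.78 (FDR 0.0427) in cKO mice. The 6 helicase subunits form a single ring, and their log2 fold changes lay between 0.78 and 1.10 in WT and between 0.54 and 1.10 in cKO mice.

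Pcna, the clamp that holds polymerases on the DNA, was called in neither genotype. It measured 40.0, 50.3 and 70.5 CPM in WT CD103+ DCs, 45.2, 59.6 and 89.9 in WT CD11b+ DCs, 47.9, 45.6 and 80.2 in cKO CD103+ DCs and 52.8, 52.6 and 89.7 in cKO CD11b+ DCs. Subsets overlapped in both genotypes, replicate 3 was the highest library of each group, and the log2 fold change was 0.27 (standard error 0.33, FDR 0.615) in WT and 0.16 (standard error 0.33, FDR 0.779) in cKO mice. The 95% intervals, -0.46 to 0.99 and -0.57 to 0.89 in an unblocked fit, overlap the range of the log2 fold changes of the Mcm genes. Within the replicate numbers of cKO mice, the log2 ratio of CD11b+ to CD103+ DCs was 0.139, 0.204 and 0.163 for Pcna, 0.978, 0.521 and 0.789 for Mcm6 and 1.223, 0.895 and 1.145 for Mcm4. Pcna was below all 6 Mcm genes in pairs 1 and 3, and in pair 2 below 5 of them, with Mcm3 at 0.139. The difference between Pcna and the Mcm genes was not tested. The other fork and licensing genes, Cdc6, Cdc45, Gins1 and Gins2, had log2 fold changes from 0.59 to 1.12 in WT and from 0.31 to 1.11 in cKO mice, and none was called, although DESeq2 called Gins1 in WT mice (FDR 0.0444).

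Nucleotide supply showed a single call per genotype. Rrm1, the large subunit of ribonucleotide reductase, measured 52.3, 60.4 and 73.2 CPM in WT CD103+ DCs, 104, 80.6 and 153 in WT CD11b+ DCs, 57.9, 56.6 and 71.6 in cKO CD103+ DCs and 111, 92.1 and 151 in cKO CD11b+ DCs. All CD11b+ libraries were above all CD103+ libraries, at a log2 fold change of 0.86 (standard error 0.25, FDR 0.0352) in WT and 0.92 (standard error 0.25, FDR 0.0273) in cKO mice. Rrm2 encodes the small subunit, whose level follows S phase. It measured 16.1, 24 and 34.3 CPM in WT CD103+ DCs, 33.3, 17.7 and 62.2 in WT CD11b+ DCs, 27.5, 24.9 and 35.2 in cKO CD103+ DCs and 57.5, 38.3 and 55.1 in cKO CD11b+ DCs. In WT mice its groups overlapped (log2 fold change 0.59, standard error 0.40, FDR 0.329), and in cKO mice they did not overlap but the gene was not called (log2 fold change 0.79, standard error 0.40, FDR 0.205). Thymidylate synthase, encoded by Tyms, had a log2 fold change of 0.76 (FDR 0.102) in WT and 0.81 (FDR 0.0982, or 0.0264 with the block) in cKO mice.

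Entry into S phase depends on Cdk2 with E-type cyclins and on E2F factors. Cdk2 measured 51.3, 48.3 and 56.9 CPM in WT CD103+ DCs, 85, 61 and 85.8 in WT CD11b+ DCs, 64.1, 53.9 and 50.8 in cKO CD103+ DCs and 89.3, 84.2 and 85.2 in cKO CD11b+ DCs. The CD11b+ libraries were higher throughout, and the fold change was small, with log2 values of 0.57 (standard error 0.15, FDR 0.0256) in WT and 0.61 (standard error 0.15, FDR 0.0177) in cKO mice. E2f1 measured 28.4, 22.9 and 33.3 CPM in WT CD103+ DCs, 45, 28.6 and 52.9 in WT CD11b+ DCs, 20.2, 22.2 and 21.1 in cKO CD103+ DCs and 33.5, 28.6 and 39.8 in cKO CD11b+ DCs. In WT mice replicate 2 of the CD11b+ DCs lay within the CD103+ range, and the log2 fold change was 0.58 (standard error 0.23, FDR 0.0981). In cKO mice the subsets did not overlap, with 0.67 (standard error 0.23, FDR 0.0726) and an FDR of 0.0227 with the block. E2f2, another activating E2F, was called higher in cKO mice (log2 fold change 0.86, standard error 0.24, FDR 0.0324), beside -0.05 (standard error 0.24, FDR 0.909) in WT mice. The cyclin E genes Ccne1 and Ccne2 had log2 fold changes of 0.81 and 0.44 in WT and 0.97 and 0.84 in cKO mice without a call (Ccne1 in cKO mice at an FDR of 0.0287 with the block), and 17.4% of the exon bases of Ccne2 are shared with Ints8.

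Mitosis genes spread in both directions. Mki67 (ENSMUSG00000031004, chromosome 7, 135689784 to 135716361) measured 227, 269.5 and 271 CPM in WT CD103+ DCs, 241, 146 and 385 in WT CD11b+ DCs, 274, 248 and 330.1 in cKO CD103+ DCs and 342, 222 and 422 in cKO CD11b+ DCs. The CD11b+ libraries lay on both sides of the CD103+ libraries, and the log2 fold change was 0.01 (standard error 0.31, FDR 0.993) in WT mice, with a 95% interval of -0.67 to 0.69, and 0.21 (standard error 0.31, FDR 0.689) in cKO mice, with -0.47 to 0.89. Cdk1 measured 14.4, 23.3 and 23 CPM in WT CD103+ DCs, 22.9, 10.7 and 27.1 in WT CD11b+ DCs, 25.1, 20.5 and 29.7 in cKO CD103+ DCs and 27.6, 25 and 29.6 in cKO CD11b+ DCs. Its subsets overlapped in both genotypes, with log2 fold changes of 0.00 (standard error 0.31, FDR 1) and 0.13 (standard error 0.31, FDR 0.819). Ccna2, the A-type cyclin of S phase and G2, measured 17.4, 23.1 and 31.7 CPM in WT CD103+ DCs, 29.9, 13 and 45.7 in WT CD11b+ DCs, 25.5, 19.8 and 40.3 in cKO CD103+ DCs and 32.1, 21.9 and 44.9 in cKO CD11b+ DCs. Here too the subsets overlapped, with 0.29 (standard error 0.43, FDR 0.69) in WT and 0.20 (standard error 0.44, FDR 0.79) in cKO mice, and 12.5% of its exon bases are shared with Exosc9.

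Top2a, Nusap1 and Aurkb were the mitosis genes called higher in CD11b+ DCs. Top2a encodes the topoisomerase that untangles chromosomes, and it measured 53.7, 83 and 94.6 CPM in WT CD103+ DCs, 139.6, 85 and 231 in WT CD11b+ DCs, 91.4, 70.5 and 107 in cKO CD103+ DCs and 177, 151 and 257 in cKO CD11b+ DCs. In WT mice replicates 1 and 3 of the CD11b+ DCs exceeded every CD103+ library and replicate 2 did not (log2 fold change 0.97, standard error 0.35, FDR 0.0715). With the block the WT FDR of Top2a was 0.0294, although pairing by number was not borne out in WT mice. The cKO subsets did not overlap (log2 fold change 1.12, standard error 0.35, FDR 0.049), although the call was lost when any of the 6 libraries was left out. Nusap1, a spindle protein, measured 2.74, 8.92 and 6.14 CPM in WT CD103+ DCs, 9.59, 8.66 and 17.7 in WT CD11b+ DCs, 5.55, 4.15 and 4.3 in cKO CD103+ DCs and 14.1, 12.8 and 17.9 in cKO CD11b+ DCs. Its cKO subsets were apart, at a log2 fold change of 1.66 (standard error 0.42, FDR 0.0205), and its WT subsets overlapped slightly (log2 fold change 0.99, standard error 0.41, FDR 0.111). Aurkb, the kinase of the chromosomal passenger complex, had a log2 fold change of 1.20 (standard error 0.34, FDR 0.0343) in WT and 0.93 (standard error 0.34, FDR 0.0898) in cKO mice. The motor gene Kif11 had 0.96 (standard error 0.31, FDR 0.0546) in cKO mice, and its FDR was 0.0165 with the block, 0.022 by DESeq2 and 0.0434 with the 6 cKO libraries fitted alone. In WT mice Kif11 had 0.69 (standard error 0.30, FDR 0.135, or 0.0439 with the block).

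Ccnb2 and Kif20a went the other way. Ccnb2 (ENSMUSG00000032218, chromosome 9, 70407692 to 70421547), whose promoter with 2 CHR matches is shown above, measured 62.9, 59.3 and 62.9 CPM in WT CD103+ DCs, 31.1, 10.7 and 22.7 in WT CD11b+ DCs, 64.1, 49.8 and 95.8 in cKO CD103+ DCs and 41.1, 24.5 and 37.7 in cKO CD11b+ DCs. All CD11b+ libraries were below all CD103+ libraries in both genotypes. The log2 fold change was -1.50 (standard error 0.35, FDR 0.0159) in WT mice, a call kept when any of the 6 libraries was left out, and -1.02 (standard error 0.35, FDR 0.0683) in cKO mice, with an FDR of 0.0287 under the block. Kif20a, a motor of cytokinesis, had -0.96 (standard error 0.30, FDR 0.0477) in WT and -0.58 (standard error 0.30, FDR 0.213) in cKO mice, and 29.3% of its exon bases are shared with Cdc23. Cenpe, Cenpf and Cdc20 were negative in both genotypes without a call, from -0.84 to -0.53 in WT and from -0.77 to -0.24 in cKO mice. The remaining 8 mitosis genes, Ccnb1, Aurka, Bub1, Bub1b, Birc5, Plk1, Tpx2 and Kif11, lay between -0.25 and 0.69 in WT mice.

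D-type cyclins and their kinases were among the most abundant members and had positive log2 fold changes in CD11b+ DCs of both genotypes. Ccnd2 (ENSMUSG00000000184, chromosome 6, 127125162 to 127152193) measured 279, 207 and 175 CPM in WT CD103+ DCs, 447, 412 and 455 in WT CD11b+ DCs, 262, 319 and 207 in cKO CD103+ DCs and 447, 479 and 544 in cKO CD11b+ DCs. All CD11b+ libraries were above all CD103+ libraries in both genotypes, and the log2 fold change was 0.99 (standard error 0.19, FDR 0.00627) in WT and 0.90 (standard error 0.19, FDR 0.00767) in cKO mice, calls kept when any single library was left out. Ccnd1 (ENSMUSG00000070348, chromosome 7, 144929931 to 144939925) measured 219.5, 168 and 124 CPM in WT CD103+ DCs, 203, 186 and 187 in WT CD11b+ DCs, 84.3, 72 and 102 in cKO CD103+ DCs and 156, 112 and 168 in cKO CD11b+ DCs. In WT mice the subsets overlapped (log2 fold change 0.17, standard error 0.21, FDR 0.611), whereas in cKO mice CD11b+ DCs were higher (log2 fold change 0.76, standard error 0.21, FDR 0.0348). Ccnd3 measured 109, 103 and 80.7 CPM in WT CD103+ DCs, 128, 127 and 118 in WT CD11b+ DCs, 98.5, 97.1 and 84.9 in cKO CD103+ DCs and 117, 111 and 108 in cKO CD11b+ DCs. The subsets did not overlap, but the log2 fold changes of 0.35 (standard error 0.12, FDR 0.0682) and 0.26 (standard error 0.12, FDR 0.174) were not called by edgeR, and DESeq2 called the WT difference (FDR 0.0208).

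Cdk6, a kinase partner of the D-type cyclins, measured 196, 183 and 222 CPM in WT CD103+ DCs, 256, 248 and 287 in WT CD11b+ DCs, 147, 169.9 and 217 in cKO CD103+ DCs and 192, 194 and 180.5 in cKO CD11b+ DCs. The WT subsets were apart and the cKO subsets overlapped, with log2 fold changes of 0.40 (standard error 0.14, FDR 0.0693) and 0.09 (standard error 0.14, FDR 0.717). Cdk4, the other partner, had 0.43 (standard error 0.18, FDR 0.107) in WT and 0.55 (standard error 0.18, FDR 0.0581) in cKO mice, where its FDR was 0.0118 with the block, and 19.7% of its exon bases are shared with Tspan31.

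The largest difference of any member between the subsets was that of an inhibitor. Cdkn1a (ENSMUSG00000023067, chromosome 17, 29090976 to 29100727) encodes a Cdk inhibitor induced by p53 and other signals that halts the cycle in G1. It measured 20.9, 20.4 and 21 CPM in WT CD103+ DCs, 69.1, 119 and 125 in WT CD11b+ DCs, 19.8, 23.9 and 10.6 in cKO CD103+ DCs and 48, 50.7 and 84.6 in cKO CD11b+ DCs. Means were 20.8 ± 0.342 CPM (SD, n = 3) in CD103+ and 104 ± 30.7 CPM (SD, n = 3) in CD11b+ DCs of WT mice, and 18.1 ± 6.83 and 61.1 ± 20.4 CPM (SD, n = 3 each) in cKO mice. Every CD11b+ library exceeded every CD103+ library, including replicate 2, which was low in most other members. The log2 fold change was 2.33 (standard error 0.33, FDR 0.00134) in WT and 1.73 (standard error 0.32, FDR 0.00428) in cKO mice, calls kept when any single library was left out. Cdkn1b, the related inhibitor of quiescent cells, measured 166, 163 and 178 CPM in WT CD103+ DCs, 146, 167 and 196 in WT CD11b+ DCs, 157, 146 and 203 in cKO CD103+ DCs and 159.8, 169 and 228 in cKO CD11b+ DCs. Its subsets overlapped, with log2 fold changes of 0.00 (standard error 0.17, FDR 0.998), 95% interval -0.37 to 0.37, and 0.14 (standard error 0.17, FDR 0.621), 95% interval -0.23 to 0.51.

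**Figure D3:**
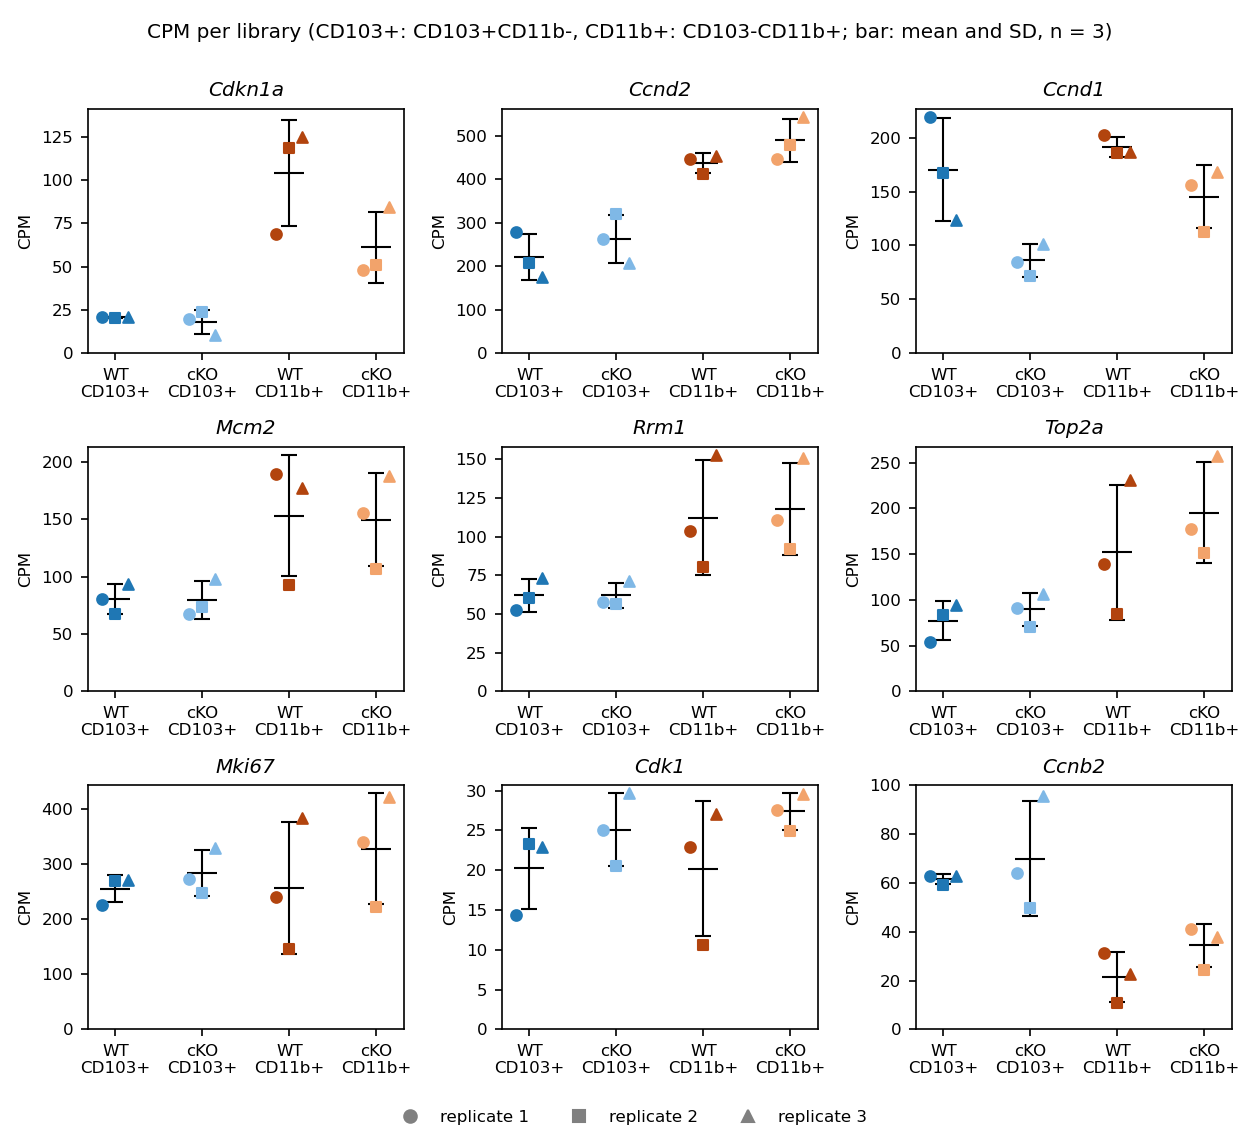
CPM in each library for 9 members in the 4 groups, with a point for each of the 3 libraries, bars for the group mean and SD, and a linear axis from 0 in each panel. Cdkn1a and Ccnd2 are higher in every CD11b+ library, Mki67 and Cdk1 overlap between the subsets, and Ccnb2 is lower in every CD11b+ library.

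A mean over the members describes the set without a test. The mean log2 CPM (prior count 2) over all 46 was 4.97 ± 0.17 in WT CD103+, 5.35 ± 0.47 in WT CD11b+, 4.98 ± 0.17 in cKO CD103+ and 5.48 ± 0.25 in cKO CD11b+ DCs (SD, n = 3 each). The difference between the subsets was 0.37 with overlapping groups in WT mice and 0.51 without overlap in cKO mice. Leaving out replicate 2 of the WT CD11b+ DCs raised the WT difference to 0.64, and leaving out replicate 3 lowered it to 0.20. Split by role, the difference was 0.81 for replication and -0.07 for mitosis in WT mice, and 0.72 and 0.21 in cKO mice. The mitosis difference in WT mice had no stable sign, running from -0.278 without replicate 3 to 0.304 without replicate 2 of the WT CD11b+ DCs, and in cKO mice it ran from 0.026 without replicate 2 to 0.346 without replicate 3 of the CD103+ DCs. For replication the ranges were 0.651 to 1.067 in WT and 0.534 to 0.927 in cKO mice. Taken within each library, the replication mean minus the mitosis mean was 0.31 ± 0.27 in WT CD103+ and 1.19 ± 0.21 in WT CD11b+ DCs, and 0.37 ± 0.27 and 0.88 ± 0.23 in cKO mice (SD, n = 3 each). This within-library contrast did not overlap between the subsets in either genotype, ranging from 0.03 to 0.58 against 1.05 to 1.43 in WT and from 0.15 to 0.67 against 0.72 to 1.15 in cKO mice.

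**Figure D4:**
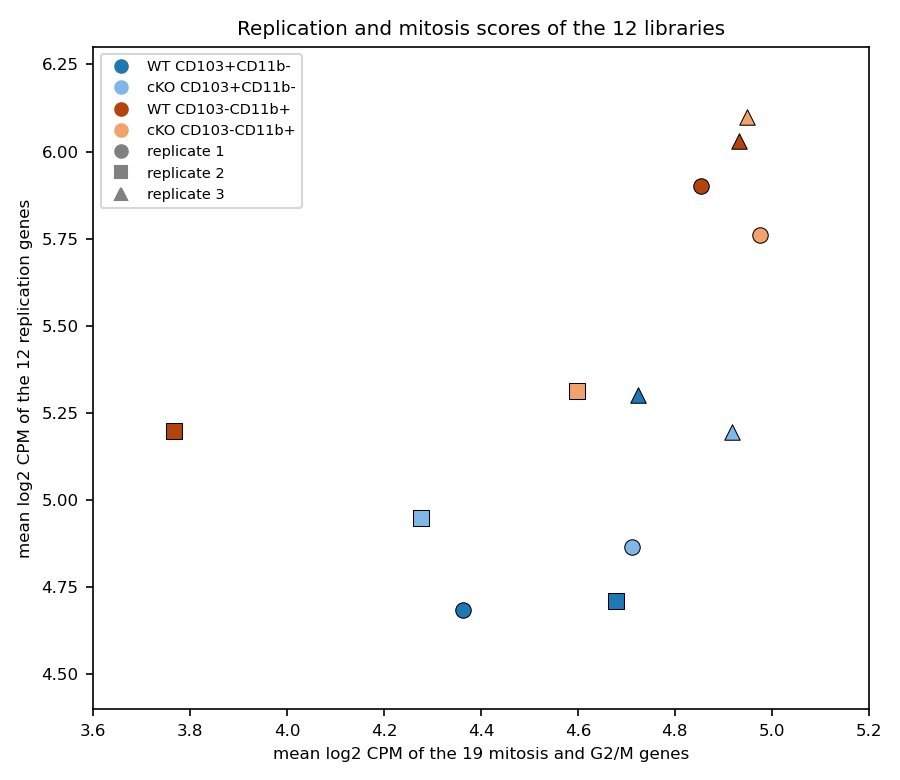
Mean log2 CPM over the 12 replication genes (vertical axis) and over the 19 mitosis genes (horizontal axis) in each of the 12 libraries, with color for the group and symbol for the replicate. At a like mitosis mean, CD11b+ libraries lie above CD103+ libraries on the replication mean, and replicate 2 of the WT CD11b+ DCs is the lowest on mitosis at 3.77.

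The next question was whether Cbfb deletion changed these genes within a subset. In CD103+ DCs none of the 46 members was called between cKO and WT by edgeR's quasi-likelihood test, where 1.02% of all genes were called, and in CD11b+ DCs none was called either, where the share of all genes was 1.61%. At an unadjusted p under 0.05 there were 1 member in CD103+ DCs (Ccnd1) and 3 in CD11b+ DCs (Cdk6, Cdkn1a and E2f2), against 2166 and 3590 of all 20580 genes tested. DESeq2 called 1 member lower in each subset, Ccnd1 in CD103+ and Cdk6 in CD11b+ DCs, and 3.95% and 7.05% of the genes to which it gave an adjusted p. Without replicate 2 of both CD11b+ groups the count was again 0 in each subset by edgeR, where 0.654% and 0.2% of all genes were called. The median log2 fold change over the members was 0.01 in CD103+ and 0.11 in CD11b+ DCs, beside -0.02 and -0.06 over all genes tested. The mean log2 CPM over the members differed by 0.005 and 0.137, and the latter ran from -0.129 without replicate 2 to 0.306 without replicate 3 of the WT CD11b+ DCs. By role, the medians were 0.13 and 0.25 for mitosis and 0.11 and -0.03 for replication. The 5 G1 cyclins and kinases had medians of -0.17 and -0.15, and their mean log2 CPM in CD103+ DCs was lower in every cKO library (6.876 to 6.981) than in every WT library (6.988 to 7.351). That difference was -0.224, or -0.121 without replicate 1 of the WT CD103+ DCs, and theirs was the one role of the 6 whose genotype groups did not overlap. In CD11b+ DCs it was -0.195 with overlapping groups. Ccnd1 weighs most in the mean of CD103+ DCs: the 5 log2 fold changes there ran from -0.99 (Ccnd1) to 0.26 (Ccnd2), 4 negative and 1 positive. The mean without Ccnd1 was not taken. Without replicate 2 of both CD11b+ groups the mitosis median in CD11b+ DCs was 0.06, and the difference in the mitosis mean, 0.323 over all libraries, was -0.051 without replicate 2 of the WT CD11b+ DCs. Of the 44 markers of other cells, 17 had a higher mean in cKO than in WT CD103+ DCs and 18 in CD11b+ DCs, and the lists did not move alike. Epithelial markers summed to 111 to 265 CPM in WT and 16.0 to 98.6 CPM in cKO CD103+ DCs, and to 262 to 398 CPM and 69.6 to 115 CPM in CD11b+ DCs. Of the 6 markers of stroma and endothelium, 0 had a higher mean in cKO CD103+ and 1 in cKO CD11b+ DCs, and of the 8 B cell markers these were 1 and 7. In CD103+ DCs markers of plasmacytoid DCs summed to 524 to 1230 CPM in WT and 208 to 435 CPM in cKO mice, and the 6 markers of CD11b+ DCs to 366 to 626 CPM and 84.1 to 137 CPM. The part of these cells in the genotype values was not tested.

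Ccnd1 had the largest genotype difference among the members. Its WT CD103+ libraries held 219.5, 168 and 124 CPM and its cKO CD103+ libraries 84.3, 72 and 102 CPM, or means of 170.4 ± 47.8 and 86 ± 14.9 (SD, n = 3 each). All cKO libraries were lower, at a log2 fold change of -0.99 (standard error 0.21, FDR 0.0608) and a 95% interval of -1.46 to -0.51. The FDR missed 0.05 in this test, with RLE scaling (0.0878), with edgeR's own filter and with the 6 libraries fitted alone (0.11), and the gene was called by DESeq2 (FDR 0.00528), by the likelihood ratio test, with no filter, with 5 counts in every sample and with the replicate block (FDR 0.0397), although equal numbers did not pair the libraries of this comparison. Of the 6 refits with a library left out it passed in 1, without replicate 3 of the WT CD103+ DCs (0.0276), and without replicate 2 of both CD11b+ groups it was 0.0917. In CD11b+ DCs the libraries held 203, 186 and 187 CPM in WT and 156, 112 and 168 CPM in cKO mice, all lower in cKO, with -0.40 (standard error 0.21, FDR 0.35). Ccnd1 shares 23.4% of its exon bases with LTO1, and reads were counted without strand.

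Cdk6 did not overlap between the genotypes in CD11b+ DCs (256, 248 and 287 CPM in WT against 192, 194 and 180.5 CPM in cKO mice), at a log2 fold change of -0.48 (standard error 0.14, FDR 0.109), and the FDR was 0.0338 by DESeq2. In CD103+ DCs it had -0.17 (standard error 0.14, FDR 0.796). Cdkn1a had -0.78 (standard error 0.31, FDR 0.227) in CD11b+ DCs with overlapping groups, and -0.18 (standard error 0.32, FDR 0.945) in CD103+ DCs. For Mki67 the genotype difference was 0.15 (standard error 0.31, FDR 0.958) in CD103+ and 0.35 (standard error 0.31, FDR 0.592) in CD11b+ DCs. Its 95% interval in CD11b+ DCs was -0.33 to 1.03.

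**Figure D5:**
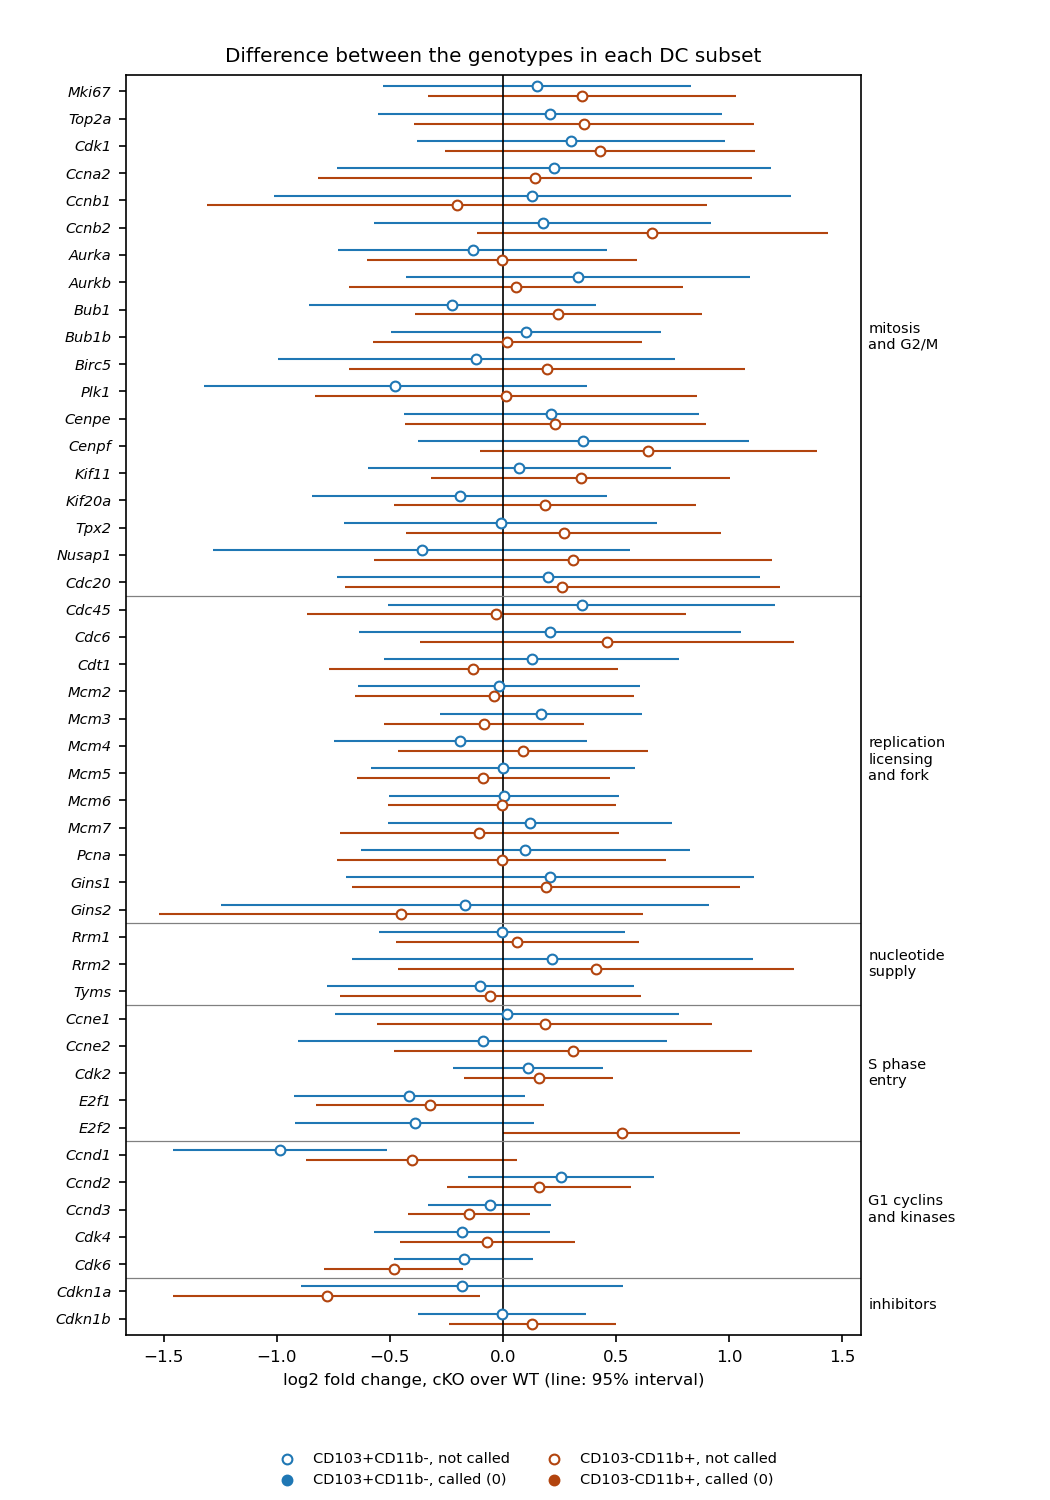
Log2 fold change of each member between cKO and WT mice in CD103+ and in CD11b+ DCs, from edgeR, with lines for the 95% confidence interval. No point was called, and that of Ccnd1 in CD103+ DCs (-0.99) lies farthest from 0.

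Whether the genotype effect differed between the subsets was tested in the same model. None of the 46 members was called by edgeR's quasi-likelihood test, where 0.651% of all genes were. An unadjusted p under 0.05 was found for 1 member, against 2284 of all 20580 genes tested. That member was E2f2, with a difference of 0.92 (standard error 0.34, FDR 0.323). It measured 44.5, 39.8 and 49.3 CPM in WT CD103+ DCs, 59.3, 30.0 and 39 in WT CD11b+ DCs, 34, 30.3 and 37.9 in cKO CD103+ DCs and 72.7, 48.1 and 64.8 in cKO CD11b+ DCs. The cKO libraries were all lower in CD103+ DCs and overlapped with WT in CD11b+ DCs. DESeq2, edgeR's likelihood ratio test and the fit without replicate 2 of both CD11b+ groups called none either, where DESeq2 called 3.22% of the genes to which it gave an adjusted p and that fit called 0.015% of all genes. For Ccnd1 the difference was 0.58 (standard error 0.30, FDR 0.532) and for Cdkn1a -0.60 (standard error 0.45, FDR 0.73).

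A wider list of 134 other cell cycle genes, of which 133 were tested, was read from the same fit. In WT mice 24 were higher and 4 lower in CD11b+ DCs (21.1% called), with a median log2 fold change of 0.41 (also with Mycn, at 0 in all WT CD103+ libraries, set at its bound), and in cKO mice 27 were higher and 2 lower (21.8%), with a median of 0.47. These shares stand beside 18.8% and 16.1% of all genes tested. Without replicate 2 of both CD11b+ groups, 26 were higher and none was lower in WT mice, and 33 were higher and 2 lower in cKO mice, where 10.3% and 12% of all genes were called. Smallest in p in WT mice were E2f7, a repressing E2F, with 1.82 (standard error 0.31, FDR 0.00347), Anln, a scaffold of cytokinesis, with 1.49 (standard error 0.25, FDR 0.00351), and Pola1, the catalytic subunit of the polymerase that primes synthesis, with 1.06 (standard error 0.20, FDR 0.00713). E2f7 measured 4.1, 5.95 and 7.28 CPM in WT CD103+ DCs, 14.1, 20.0 and 28.2 in WT CD11b+ DCs, 8.65, 6.59 and 5.87 in cKO CD103+ DCs and 21.8, 18.1 and 19.9 in cKO CD11b+ DCs. In cKO mice they were Cdc7, the kinase that fires origins, with 1.82 (standard error 0.26, FDR 0.000715), Brca2, a repair protein of replication forks, with 1.46 (standard error 0.23, FDR 0.00145), and Pola1, which was 2.46-fold higher (FDR 0.00154). Pola1 measured 26, 30.0 and 37.8 CPM in WT CD103+ DCs, 69.9, 50.3 and 76.2 in WT CD11b+ DCs, 31.1, 30.3 and 38.3 in cKO CD103+ DCs and 81.5, 67.3 and 95.9 in cKO CD11b+ DCs, so that all CD11b+ libraries stood above all CD103+ libraries. Called lower in both genotypes were Cdc25a, a phosphatase that activates Cdk2, and Cks1b, a Cdk subunit, and in WT mice also Nek2 and Max.

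Between the genotypes, 2 of the 133 were called lower in cKO CD103+ DCs and none was called in CD11b+ DCs by edgeR's quasi-likelihood test, where 11 had an unadjusted p under 0.05 and DESeq2 called 3. Of all genes 1.02% and 1.61% were called, and 3590 of the 20580 tested had an unadjusted p under 0.05 in CD11b+ DCs. Without replicate 2 of both CD11b+ groups none of the 133 was called in either subset. The pair were Timeless, a replisome protein that holds the fork together, with -0.75 (standard error 0.15, FDR 0.042), and Gins3, a subunit of the replicative helicase complex, with -1.22 (standard error 0.25, FDR 0.0484). Timeless measured 99.5, 99.3 and 88.8 CPM in WT and 56.1, 55.2 and 60.2 CPM in cKO CD103+ DCs, with no overlap. Gins3 measured 9.23, 8.01 and 11.5 CPM in WT and 3.33, 4.39 and 4.69 CPM in cKO CD103+ DCs, again with no overlap and from few counts. The test of the difference between the subsets called none of the 133, with 3 at an unadjusted p under 0.05 (2284 of all genes tested) and none by DESeq2.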

How the data were processed

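Sorted intestinal DCs were profiled by RNA-seq adapted from a full-length single-cell protocol with random priming (RamDA-seq). Per the labels and the study's methods, the authors trimmed reads with Trim Galore, mapped them with STAR 2.7 to GRCm38, removed duplicates and reads of low mapping quality, and deposited raw counts per Ensembl gene from HTSeq, counted without strand and not normalized. The counter's own summary lines were not used. Symbols, positions and exon lengths came from GENCODE M21.

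Samples were grouped by genotype and subset in their labels, 3 libraries each. The 20580 genes that reached 5 counts in any 1 sample were normalized by TMM and tested in 1 model of the 4 groups with the quasi-likelihood test of edgeR (version 4.0.16, under R 4.3.3). FDR is the p adjusted by Benjamini-Hochberg over all genes tested, and calls needed an FDR under 0.05 and a fold change above 1.3. Intervals are at 95% and cover the spread of the fit. DESeq2 1.42.0, edgeR's likelihood ratio test, other filters and scalings, replicate blocks, fits to 6 samples, and refits without single libraries were the alternatives. The code was tested on simulated counts. Motif searches and plots used Python 3.11.15, pandas 2.3.3 and matplotlib 3.10.9.

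Cells in both subsets of cKO mice shared replicate numbers, and deviations from the group means correlated over genes at r = 0.112, 0.321 and 0.354 for equal numbers. These numbers were taken to pair the libraries in that comparison. Blocked FDRs of single genes between the subsets come from a fit with the number as a block within genotype. The r values do not settle the pairing, because replicate 2 of the CD11b+ DCs gave 0.422 between the genotypes, which are different mice. What a number marks is not given in the sources used here. The members and all lists were chosen with earlier results of these data known. Members named with every library were Mki67, Top2a, Cdk1, Ccna2, Pcna, Mcm2, Rrm2, E2f1, Ccnd1, Ccnd2, Ccnd3, Cdk6, Cdkn1a, Cdkn1b and the 6 called with the smallest p in each comparison. E2f2 and uncalled members outside this rule were added after their values were seen. From the wider list the 3 called genes with the smallest p per comparison were named, and those called lower were added. Depth ranged from 2161929 to 5863484 counts on genes, which limits the low members most.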

Additional observations from a re-analysis of the deposited data

How the results depend on the processing

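No member changed direction under any alternative where it was called. Between the genotypes, Ccnd1 became the only call in CD103+ DCs (1 member, lower) with no filter, with 5 counts in every sample, with DESeq2, with the likelihood ratio test and with the replicate block, and leaving out single libraries gave 0 to 1. In CD11b+ DCs DESeq2 called 1 member (Cdk6), and leaving out single libraries gave 0. For the subsets in WT mice, 22 members were called with the replicate block within genotype, where 25.2% of all genes were called. The count was 3 with the 6 samples alone (13.4% of all genes) and 3 to 15 with single libraries left out. For the subsets in cKO mice, 20 were called with 5 counts in every sample, 17 with DESeq2 (23.2% of genes with an adjusted p) and 22 with the replicate block. The count was 20 with the block within genotype (21.5% of all genes). It was 19 without the libraries highest in markers of other cells (12% of all genes, chosen after seeing the data), and 2 to 14 with single libraries left out. Shares of all genes for the remaining settings are not given here. The difference of genotype effects gave 0 in every setting. The cause of these shifts was not tested. Fewer genes or samples enter the filter of 5 counts, the 6 samples and the refits.

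Pairing by replicate number was not borne out elsewhere, with r of 0.357, -0.0846 and 0.352 for the subsets in WT mice, 0.132, -0.0911 and 0.0702 for the genotypes in CD103+ DCs and 0.02, 0.422 and 0.186 in CD11b+ DCs. With the replicate block, 20 members were called between the subsets in WT mice, and the share of all genes under this block is not given here. With the block within genotype that share was 25.2%, above the unblocked 18.8%. Of 798 values of single members under alternatives, 600 stayed on their side of the threshold, 100 passed it newly and 98 no longer passed it. Members under 10 CPM are limited by depth.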

Other observations

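Histone genes, whose products package newly copied DNA, were looked at after the data were seen. Summed over 70 histone genes, the level was 296.5, 324 and 504 CPM in WT CD103+ DCs, 261, 194 and 389.5 CPM in WT CD11b+ DCs, 356, 249 and 618 CPM in cKO CD103+ DCs and 272, 226 and 419 CPM in cKO CD11b+ DCs. The ranges of the subsets overlapped in both genotypes, replicate 3 was the highest library of each group, and the CD11b+ library was below the CD103+ library of the same replicate number in each of the 3 pairs of cKO mice and for each of the 3 numbers in WT mice. Of the 70 genes, 40 were tested, with a median log2 fold change between CD11b+ and CD103+ DCs of -0.37 in WT and -0.32 in cKO mice. None was called by edgeR's quasi-likelihood test, where 18.8% and 16.1% of all genes were called. An unadjusted p under 0.05 was found for 5 and 4 histone genes, against 7059 and 6555 of all 20580 genes tested. DESeq2 called none either, of 37 and 36 to which it gave an adjusted p. Histone genes are near-identical copies, so reads that map to several of them were partly removed by the authors.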
